A study of Mus musculus with 22 samples.

Results

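The mouse miRNA probes mmu-miR-2132, mmu-miR-2133, mmu-miR-2134, mmu-miR-2140, mmu-miR-2141 and mmu-miR-720 of an nCounter panel were followed across doxycycline-induced fallopian tube (FT) cancer models. They were grouped as miRNA entries whose RNA is likely to be a fragment of ribosomal RNA (rRNA) or transfer RNA (tRNA), and they made up 6 of the 566 mouse miRNAs on the panel. The members were also selected on their counts in CT, FT and M, so their tissue differences are described without a test, and only their plasma levels were tested.

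The mice carried a conditional Pax8-Cre system that doxycycline switches on, so that deletion starts in cells that use the Pax8 promoter, among them the epithelium of the fallopian tube. Control FT (CT, n = 5) came from uninduced mice with floxed, undeleted alleles, namely Brca1 fl/fl (CT1, CT3), Brca1 fl/+ (CT2), Brca2 fl/fl (CT4) or Brca2 fl/+ (CT5). Doxycycline-induced FT (n = 5) were Brca2 -/+ (FT1, FT3, FT5), Brca1 -/- (FT2) or Brca2 -/- (FT4). Metastatic tumors (M, n = 5) were Brca2 -/- (M1, M3), Brca1 -/+ (M2, M6) or Brca2 -/+ (M4). The study lists M1, M2, M3 and M4 as peritoneal and M6 as an ovarian metastatic tumor. It took some of its metastatic tumors from an earlier publication and does not say which. Plasma of tumor-bearing mice (TS1, TS2, TS3 and TS4, n = 4) was drawn from the animals that gave FT2, FT3, FT4 and FT5, in that order. Control plasma (CS2, CS3 and CS4, n = 3) was drawn from those that gave CT2, CT3 and CT4, and the labels call part of the plasma serum. Some M shared a mouse with an FT sample, and the sources used here do not say which, so M and FT are not fully independent. Age is not given in the sources used here.

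A miRNA is cut by Drosha and Dicer from a hairpin precursor and guides Argonaute to messenger RNAs through its seed. Ribosomes and tRNAs are far more abundant in cells, and pieces of them of miRNA length were registered as miRNAs in early deep-sequencing catalogues. The numbered group from miR-2132 to miR-2146 entered the catalogue from such sequencing, and its entries are in part regarded as rRNA pieces. miR-720 is regarded as a fragment of a threonine tRNA. In the nCounter assay a small RNA is first joined to a sequence tag by ligation and then counted with a barcoded probe, without amplification. The panel also counts 4 housekeeping mRNAs directly, with no ligation. These are Actb (cytoskeletal actin), B2m (the light chain of MHC class I), Gapdh (a glycolytic enzyme) and Rpl19 (a protein of the large ribosomal subunit).

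RefSeq mature sequences for GRCm38.p6 were at hand for 3 of the 19 listed mouse miRNA probes on the panel (the 6 members, 7 numbered neighbours, 3 probes regarded as tRNA fragments and 3 placed in the rRNA spacer), and for 0 of the 6 members. The sequences of the 3 matched neighbours are shown. Of these, miR-2137 moved with the members. miR-2136 and miR-2139 were above background in 0 of 22 samples, so a change in them could not be seen. Capitals mark the seed, bases 2 to 8 from the 5′ end.
miR-2136 (chr9:104426163-104426183, plus strand): cUGGGUGUugacugagaugug
miR-2137 (chrX:72992113-72992133, plus strand): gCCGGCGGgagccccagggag
miR-2139 (chr4:139967531-139967554, minus strand): aGCUGCGCugcuccugguaacugc
The 3 seeds differed, and G and C made up 85.7% of miR-2137, 62.5% of miR-2139 and 52.4% of miR-2136. The origin of the members' signal was not tested.

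Total mouse miRNA counts ran from 70164 to 598321 in the 15 tissue samples and from 18350 to 269005 in the 7 plasma samples. A count was called above background when it passed the mean plus 2 SD of the 8 negative control probes of its own sample, which was 18.3 to 67.7 counts in tissue and 25 to 48.4 in plasma. Values below are normalized counts, scaled in each sample by a geometric mean over the miRNAs with the highest counts (100 of them for tissue, 30 for plasma), so a level in tissue cannot be set against a level in plasma. All 6 members were in the tissue scaling set and miR-720 was in the plasma set. The scaling level was low in FT2 (196 counts), M1 (174), M3 (169) and M4 (192), and also in CT5 (199), FT3 (215) and FT4 (234), against 426 to 1332 in the other tissue samples, and its part in the results was not tested.

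The markers of the tissue moved between the groups as well. The summed level of 5 ciliated-epithelium miRNAs (the miR-34b/c and miR-449 families) was 312 to 3767 normalized counts in CT, 94.7 to 1774 in FT and 27.9 to 88.3 in M, where 0 of the 5 probes was above background in any sample. The 5 smooth-muscle miRNAs summed to 4713 to 13280 in CT and 626 to 3821 in M, and the 5 leukocyte miRNAs to 593 to 1164 in CT and 967 to 6301 in M. The 5 epithelial miRNAs of the miR-200 family summed to 9285 to 11038 in CT and 242 to 42010 in M. Fewer cells of a type and less RNA per cell cannot be told apart in such bulk samples, and the part of these shifts in the members' values was not tested.

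The numbered members (5 of the 6) were higher in every metastatic tumor than in every control tube. In control FT 4 of them were at or near background and miR-2141 was above it in 4 of 5 samples. Among the induced tubes FT2 had the highest value of each, although miR-2133 was below background there. miR-720 was above background in all 22 samples and did not follow them. In CT the 5 low members stood at 7.66 ± 6.30 normalized counts for miR-2133, 11.6 ± 4.13 for miR-2134, 22.1 ± 8.04 for miR-2132, 29.4 ± 8.19 for miR-2140 and 110 ± 57.1 for miR-2141 (SD, n = 5). In M they stood at 928 ± 1151 for miR-2133, 3380 ± 4569 for miR-2134, 966 ± 1100 for miR-2132, 659 ± 637 for miR-2140 and 4748 ± 3039 for miR-2141 (SD, n = 5).

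**Figure D1:**
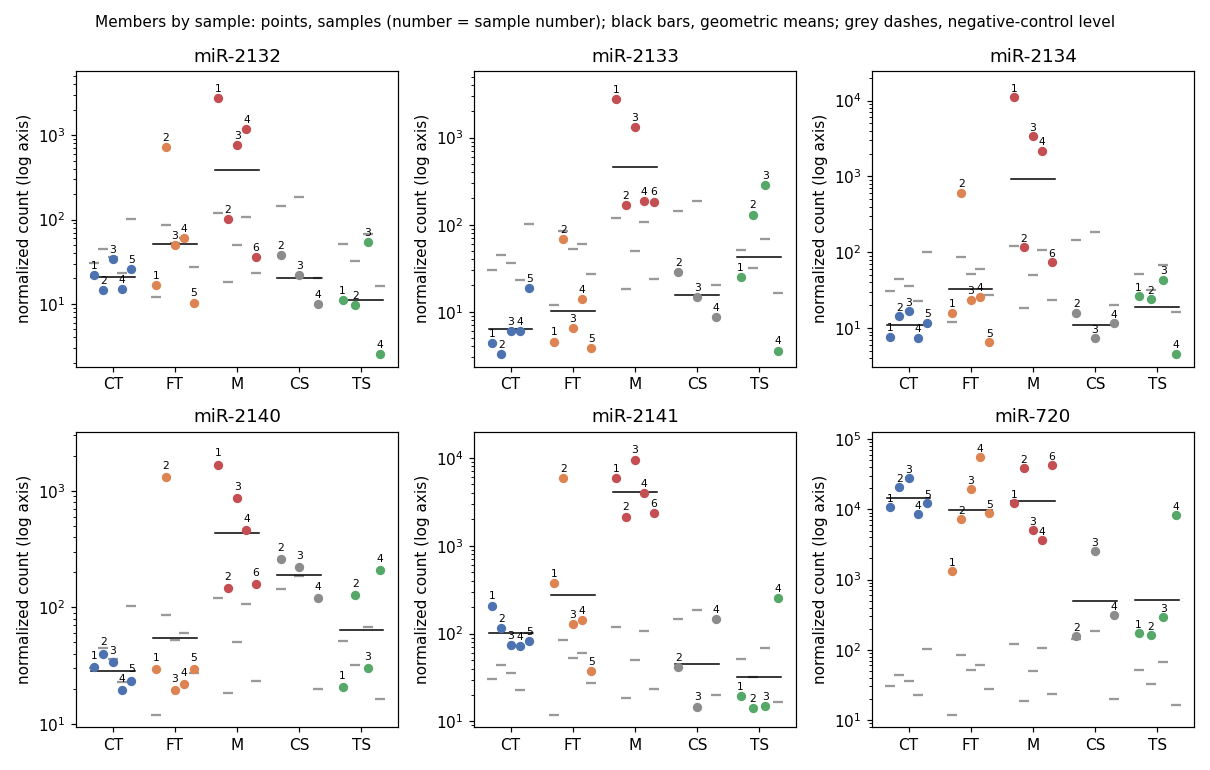
Normalized counts of the 6 members on a log axis, with each sample as a numbered point, grouped as CT, FT, M, CS and TS. Black bars are geometric means and grey dashes the background level of each sample. For 5 members all M points lie above all CT points and FT2 stands above the other FT samples, whereas miR-720 overlaps between the tissue groups (tissue and plasma were scaled separately).

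miR-2134 reached the highest fold difference of the set. It was 7.65, 14.4, 16.8, 7.44 and 11.7 normalized counts in CT1 to CT5, all below background, and 11155 in M1, 116 in M2, 3378 in M3, 2175 in M4 and 73.7 in M6. M1, M3 and M4 were high, M2 and M6 were low, and none of them reached down into the control range. In M1 it took 4170 deposited counts, a share of 4.04% of all miRNA counts (95% Wilson interval 3.92 to 4.16, covering counting error only). In FT it was 16.1, 613 (FT2), 23.8, 25.8 and 6.54, so that only FT2 stood clear of the controls.

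miR-2132 followed miR-2134 closely. It was 21.9, 14.4, 33.7, 14.9 and 25.8 normalized counts in CT1 to CT5 and 2737, 101, 771, 1187 and 35.5 in M1, M2, M3, M4 and M6. M6 lay just over the highest control, CT3. FT2 had 727, and the other induced tubes had 10.4 to 59.6. The ratio of miR-2134 to miR-2132 counts within a sample, which no scaling changes, was 0.350 to 1 in CT, 0.433 to 0.958 in FT and 1.16 to 4.38 in M, so it was above every CT and FT value in all 5 M. In CT and in most FT both counts in that ratio were at background.

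miR-2133 was the lowest member in control FT, at 4.37, 3.28, 5.94, 5.95 and 18.7 normalized counts. It was 2790, 168, 1312, 186 and 184 in M1, M2, M3, M4 and M6, high in the M1 and M3 tumors, both Brca2 -/-. In FT it was 4.54, 68.7 (FT2), 6.48, 13.9 and 3.82, and no FT sample passed background (FT2 had 29 counts against a level of 36.1). miR-2133 was the only member whose M and FT samples did not overlap.

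miR-2140 was 30.6, 39.97, 33.7, 19.3 and 23.4 normalized counts in CT1 to CT5. It was 1308 in FT2 and 19.4 to 29.4 in the other induced tubes. It was 1672, 146, 865, 457 and 157 in M1, M2, M3, M4 and M6. FT2 therefore lay within the range of the tumors while the rest of the FT group lay within that of the controls.

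miR-2141 was the only one of the 5 that most control tubes carried above background (4 of 5). It was 208, 115, 74.2, 72.2 and 82.0 normalized counts in CT1 to CT5, 378, 5848, 128, 143 and 37.6 in FT1 to FT5, and 5856, 2129, 9481, 3934 and 2340 in M1, M2, M3, M4 and M6. The lowest tumor was over the highest control by more than the whole control range. Its highest share of the miRNA counts was 4.90% in M3 (95% Wilson interval 4.75 to 5.07).

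miR-720 was the most abundant member in every tissue sample save M3 and M4, where miR-2141 was higher. It was 10976, 20698, 28042, 8651 and 12345 normalized counts in CT1 to CT5, 1311, 7388, 19497, 56129 and 8966 in FT1 to FT5, and 12367, 39401, 5012, 3664 and 42938 in M1, M2, M3, M4 and M6. The 3 groups overlapped throughout. Among the tumors it was highest in M2 and M6, where miR-2134 was lowest, and lowest in M3 and M4. It took 20.1% of all miRNA counts in M6 (95% Wilson interval 19.95 to 20.2) and 1.23% in M4 (1.17 to 1.29). The 6 members together made up between 0.841% (FT1) and 21.4% (M6) of the miRNA counts of a tissue sample.

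In the comparison of M with CT, which asks what differs between metastatic tumors and normal tubes, the fitted log2 fold change (edgeR, with its standard error) was 8.17 (SE 1.23) for miR-2134, 7.01 (0.991) for miR-2133, 5.45 (0.952) for miR-2132, 5.43 (0.627) for miR-2141 and 4.47 (0.703) for miR-2140. It was 0.36 (0.638) for miR-720. The median over the 6 was 5.44 against 0.29 over all 566 miRNAs. All M lay above all CT for 5 of 6, as for 7.42% of all miRNAs, and below for 0, as for 5.12%, and edgeR called 14.5% of all miRNAs in either direction. These counts describe the choice of the members and support nothing. As 4 of the 5 were at background in most controls, their folds are better read as bounds, with each control set at its background level or its own value, whichever was higher. The M mean was then at least 71.7-fold higher than CT for miR-2134, 20.5-fold for miR-2132, 19.7-fold for miR-2133 and 14.0-fold for miR-2140. M1 weighed most on the means, and without it the log2 fold change was 6.93 for miR-2134, 6.03 for miR-2133, 4.56 for miR-2132 and 3.77 for miR-2140.

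The comparisons of FT with CT and of M with FT share samples with the one above, so their values are set side by side and not counted as further support. In FT against CT the log2 fold change was 3.56 (SE 0.986) for miR-2141, 3.52 (0.914) for miR-2134, 3.24 (0.946) for miR-2140, 2.95 (0.842) for miR-2132, 1.35 (0.775) for miR-2133 and 0.21 (0.771) for miR-720. No member had all FT above all CT (0.53% of all miRNAs did), and edgeR called 0.177% of all miRNAs. These values rested on FT2, and without it the log2 fold change was 0.64 for miR-2141, 0.56 for miR-2134, -0.21 for miR-2140, 0.56 for miR-2132 and -0.08 for miR-2133. In M against FT the log2 fold change was 5.62 (SE 1.13) for miR-2133, 4.63 (1.30) for miR-2134, 2.49 (1.09) for miR-2132, 1.86 (1.04) for miR-2141, 1.23 (1.03) for miR-2140 and 0.15 (0.947) for miR-720. Of the members, miR-2133 alone had all M above all FT (1.06% of all miRNAs did), and no member had all M below all FT (0.353%). The edgeR test called 1.59% of all miRNAs in this comparison.

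**Figure D2:**
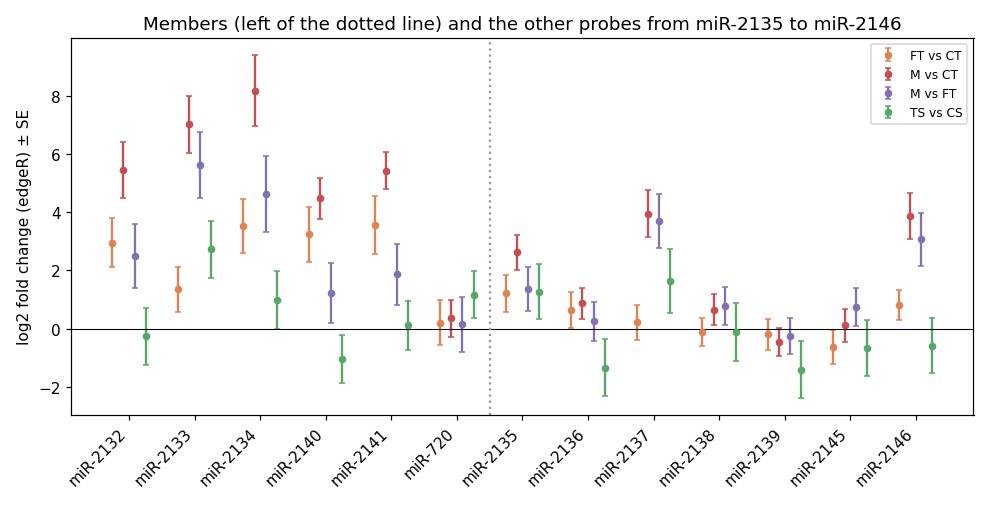
Log2 fold change with its standard error (bars) for each member and the 7 numbered neighbours in FT against CT, M against CT, M against FT and TS against CS, from edgeR. In M against CT the 5 numbered members lie between 4.47 and 8.17 and miR-720 at 0.36. For the members only the TS against CS values were tested, and 0 of 6 passed.

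The housekeeping mRNAs also stood higher against the miRNAs in the tumors. All 4 were higher in every M than in every CT. Actb was 1289 to 5301 normalized counts in CT and 10661 to 105697 in M, and Rpl19 was 448 to 2023 in CT and 3704 to 25037 in M. B2m was 223 to 904 in CT and 1610 to 6496 in M, and Gapdh was 119 to 269 in CT and 359 to 3975 in M. Their geometric mean per sample rose by 2.98 on the log2 scale in M against CT (higher than the CT mean in 5 of 5 samples, two-sided exact permutation test, p = 0.00794, the smallest that 5 against 5 samples allow, Benjamini-Hochberg over 4 comparisons 0.0317). In FT against CT the difference was 1.53 (p = 0.206, adjusted 0.238, exact permutation test), with 14449 in FT2, 3904 in FT1 and 3587 in FT4 against 240 in FT3 and 539 in FT5. In M against FT it was 1.45 (p = 0.238, adjusted 0.238, exact permutation test).

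FT2 and the tumors stood above the controls in the numbered members and in the housekeeping mRNAs. FT1 and FT4 were also above every CT in the housekeeping mean (3904 and 3587 against 392 to 1257 normalized counts). In both tubes miR-2133 and miR-2140 lay within the control range, and miR-2141 was over it in FT1 only. The 2 signals thus did not always rise together. Each member was set over the housekeeping geometric mean of its own sample, a ratio that no scaling can move. In M against CT this log2 ratio differed by 3.43 for miR-2134 (CT -5.92 ± 0.28, M -2.49 ± 2.72, SD, n = 5), by 3.23 for miR-2133 (CT -6.74 ± 1.19, M -3.51 ± 2.13) and by 2.35 for miR-2141 (CT -2.72 ± 1.14, M -0.37 ± 1.16). For these 3 members all 5 tumors lay above the CT mean. The difference was smaller for miR-2132, at 1.24 with 4 of 5 tumors above the CT mean, and for miR-2140, at 0.95 with 3 of 5. In CT, 0 of 5 samples had miR-2134, miR-2133 or miR-2132 above background, and 1 of 5 had miR-2140. The CT ratios of these members thus rest on background counts, and the order of their differences cannot be read as an order of change. The ratio of miR-720 went the other way, at -3.14 (CT 4.46 ± 0.32, M 1.32 ± 2.54), with 0 of 5 tumors above the CT mean. Against the housekeeping mRNAs M and CT overlapped for all 6 members, which was not so for 5 of them on the miRNA scale.

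In FT against CT the ratio of miR-2134 lay on both sides of the controls, from -7.93 to -3.34 in FT against -6.22 to -5.66 in CT. The differences in mean log2 ratio were 0.06 for miR-2134, -0.09 for miR-2141, -0.23 for miR-2132, -0.59 for miR-2140 and -0.83 for miR-2133, all within 1 SD of the FT values, and most of the counts behind them were at background save those of miR-2141. For miR-720 it was -2.10 (FT 2.36 ± 3.46, SD, n = 5). In M against FT it was 4.06 for miR-2133, 3.37 for miR-2134, 2.44 for miR-2141, 1.54 for miR-2140, 1.46 for miR-2132 and -1.04 for miR-720. A ratio shows unequal change, and which of its terms changed per cell cannot be told apart.

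**Figure D3:**
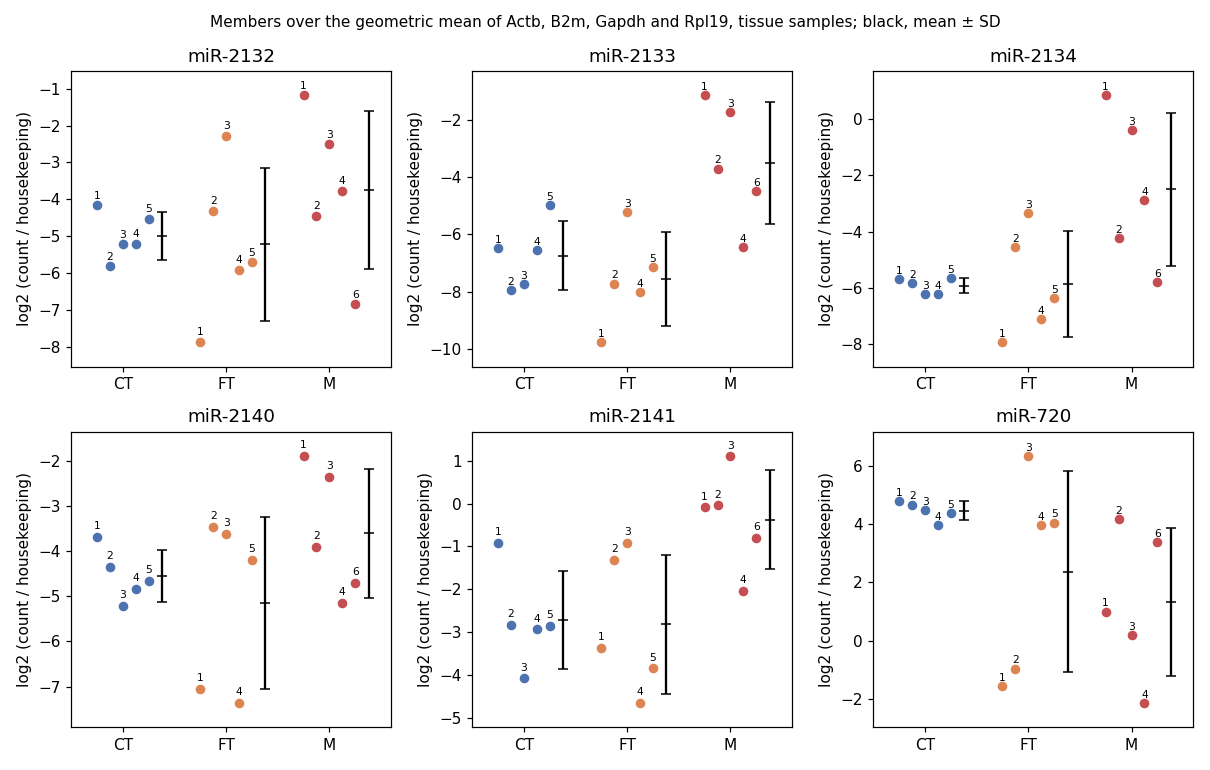
Log2 of each member's count over the geometric mean of Actb, B2m, Gapdh and Rpl19 in the same sample, by tissue group, with each sample as a numbered point and black bars for the mean ± SD. M and CT overlap for all 6 members, with the mean of miR-2134 at -5.92 in CT and -2.49 in M and that of miR-720 at 4.46 in CT and 1.32 in M. The CT counts of miR-2134 were all below background.

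The members' deviations within the groups were also set beside those of the housekeeping mRNAs, as a description with no test, since the members were selected on these counts. After each group's mean was removed from the log2 normalized counts of the 15 tissue samples, r was 0.67 (rho 0.54) for miR-2141, 0.64 (0.53) for miR-2140, 0.58 (0.61) for miR-2134, 0.56 (0.58) for miR-2132 and 0.41 (0.39) for miR-2133. It was -0.29 (rho -0.37) for miR-720. Without FT2 and FT3, the samples farthest from the median housekeeping level, r was 0.48, 0.28, 0.53, 0.54 and 0.14 for the 5 numbered members in the same order, and -0.24 for miR-720. Both measures share the scaling of their sample.

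**Figure D4:**
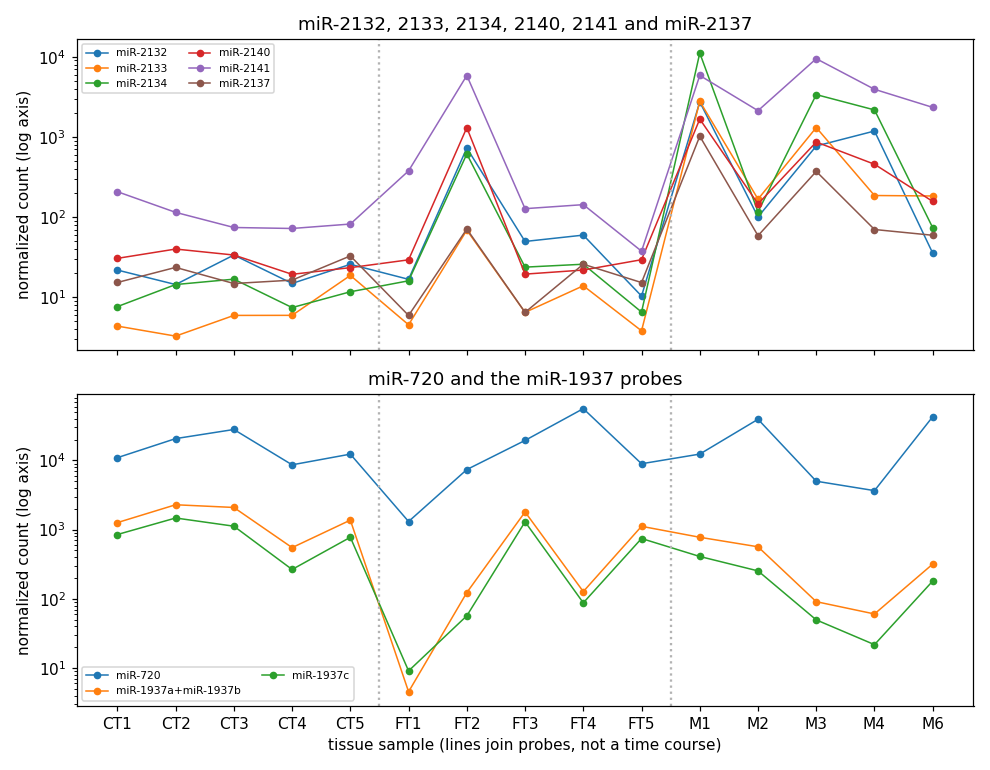
Normalized counts on a log axis across the 15 tissue samples, with a line per probe, for the numbered members and miR-2137 (upper panel) and for miR-720 and the miR-1937 probes (lower panel). For each numbered member all M lie above all CT, some only just, and FT2 is the highest FT sample, though below background for miR-2133. miR-720 is high in M2 and M6, where miR-2134 is at 116 and 73.7 normalized counts.

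The members differed among themselves. Over the 15 tissue samples miR-2132 and miR-2134 ran closest together (r = 0.97, rho 0.95 on log2 normalized counts, a description over samples that share their scaling). The other pairs of numbered members had r from 0.86 to 0.94 and rho from 0.60 to 0.90. miR-720 had r from -0.20 to -0.01 and rho from -0.21 to 0.01 with them. The correlations in this paragraph pool CT, FT and M. They therefore include the differences between groups on which the members were selected. The most similar other miRNA to the mean of the members, of 135 with a mean of at least 50 counts, was miR-1224 (r = 0.99), with mean levels of 54.0 in CT, 594 in FT and 4303 in M. It was followed by miR-532-5p (0.93), miR-25 (0.93), miR-378 (0.92) and miR-1198 (0.92). miR-720 was most similar to the joint probe for miR-1937a and miR-1937b (r = 0.62).

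The other probes of the numbered group are not members and were tested, although their list was also drawn up with earlier results of these data known. In M against CT, 3 of 7 rose and 0 fell, where edgeR called 10.2% of all miRNAs higher and 4.24% lower. The median log2 fold change of the 7 was 0.87, against 0.29 over all miRNAs. miR-2137 rose by 3.95 on the log2 scale (SE 0.797, adjusted p = 0.00228, edgeR quasi-likelihood test with Benjamini-Hochberg adjustment), from 14.8 to 32.8 normalized counts in CT to 1022, 58.7, 372, 70.1 and 59.4 in M1, M2, M3, M4 and M6. It was the only neighbour with all M above all CT, though it passed background in 4 of 22 samples. Without M1 its change was 2.76, still past the threshold. miR-2146 rose by 3.88 (SE 0.794, adjusted p = 0.00255 by edgeR), with 848, 44.7, 1177, 486 and 64.8 in M against 19.8 to 58.6 in CT. miR-2135 rose by 2.62 (SE 0.607, adjusted p = 0.00641 by edgeR), with 30.03 to 278 in M against 6.93 to 33.9 in CT. In CT, miR-2137 was above background in 0 of 5 samples, miR-2146 in 2 and miR-2135 in 1. Their folds are therefore also better read as bounds, set as for the members. The M mean was then at least 6.71-fold higher than CT for miR-2137, 10.7-fold for miR-2146 and 2.43-fold for miR-2135. The tumors M1 and M3 were the highest in these 3, as they were in miR-2133. miR-2136, miR-2138, miR-2139 and miR-2145 had log2 fold changes from -0.46 to 0.87 (adjusted p from 0.274 to 0.904 by edgeR), and 0 of 22 samples had any of them above background. With the housekeeping mRNAs as the scale, 0 of the 7 rose, miR-2137 stood at 0.87 and miR-2135 at -0.70, and all miRNAs shifted by a median of -2.64.

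In M against FT, 1 of the 7 rose, miR-2137 by 3.70 (SE 0.937, adjusted p = 0.0288 by edgeR), where 0.883% of all miRNAs did. This call was lost without M1, without FT1, FT3, FT4 or FT5, under several scalings and under limma, as given in the closing section. miR-2137 was above background in 0 of 5 FT, and read as a bound its M mean was at least 6.66-fold higher than FT. In FT against CT, 0 of the 7 passed.

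The probes regarded as tRNA fragments, like miR-720, went in both directions in M against CT. miR-1937a+miR-1937b fell by 2.06 on the log2 scale (SE 0.663, adjusted p = 0.0450 by edgeR), from 550 to 2290 normalized counts in CT to 60.4 to 776 in M. miR-1937c fell by 2.29 (SE 0.691, adjusted p = 0.0344 by edgeR), from 266 to 1474 to 21.8 to 409. These probes ran together (r = 0.98 over the 15 tissue samples), and the probes may share targets, so they count as 1 signal. Both calls were lost without CT1, without CT2, without CT3 or without M3, and also with miR-425 or ligation-control scaling, with negative controls subtracted and under the methods' t-test. miR-1274a, regarded as a fragment of a lysine tRNA, rose by 2.98 (SE 0.625, adjusted p = 0.00300 by edgeR), but it had at most 66 counts and was above background in 1 of 22 samples (M2). miR-720 itself had a ratio to the miR-1937a+miR-1937b probe of 8.68 to 15.7 within CT, 8.02 to 441 within FT and 15.9 to 135 within M. In FT1, which had the lowest miR-720 of the tissue samples, the miR-1937 probes were at 4.54 and 9.07 normalized counts, below background. In FT against CT and in M against FT, 0 of the 3 passed.

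The probes placed in the spacer of the rRNA precursor showed little signal. miR-712 and miR-715 were above background in 0 of 22 samples and did not pass (log2 fold change in M against CT 1.29 and 0.68, adjusted p = 0.186 and 0.408 by edgeR). miR-714 rose by 2.85 (SE 0.796, adjusted p = 0.0220 by edgeR), with 517 normalized counts in M4 and 12.1 to 110 in the other tumors against 11.9 to 30.5 in CT, and it was above background in 2 of 22 samples. Without M4 its change was 1.47. With the housekeeping mRNAs as the scale it was -0.90.

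In plasma the members were tested, as their choice used tissue. Tumor-bearing (TS) and control (CS) plasma did not differ past the threshold in any of the 6, and no member had all TS above or below all CS (0.707% of all miRNAs did so upward and 4.59% downward). By edgeR 0 of the 566 miRNAs passed (42 had an unadjusted p under 0.05, and DESeq2 called 13). The median log2 fold change was -0.89 over all miRNAs and 0.55 over the 6 members. Over all miRNAs it was -0.05 with TMM scaling and 0.03 with DESeq2 size factors. The plasma folds below thus depend on the scaling. The p-values measure the spread between single mice, with 4 against 3.

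miR-2133 had the largest fold change of the members by edgeR, whereas in the difference of mean log2 counts miR-2140 (-1.58) was ahead of it (1.47). miR-2133 was 28.6, 14.8 and 8.71 normalized counts in CS2 to CS4 and 24.8, 131, 287 and 3.57 in TS1 to TS4, above background in TS2 and TS3 only. TS4 was the lowest of all 7 samples and the groups overlapped. Its log2 fold change was 2.72 (SE 0.971, unadjusted p = 0.00515, adjusted p = 0.542 by edgeR), and the exact permutation test over samples gave p = 0.457 (adjusted over the 6 members tested in this way 0.771). DESeq2 called it, with a log2 fold change of 2.98 (adjusted p = 0.00953).

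miR-2140 was 257, 222 and 120 normalized counts in CS2 to CS4 and 20.7, 127, 30.04 and 209 in TS1 to TS4. It was above background in 3 of 3 CS and in 2 of 4 TS. The groups overlapped, with a log2 fold change of -1.03 (SE 0.828, adjusted p = 0.570 by edgeR) that was positive under 4 of the other settings. It lay near the median of all miRNAs in this comparison, -0.89.

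miR-720 was above background in all 7 plasma samples. It was 156, 2527 and 316 normalized counts in CS2 to CS4 and 175, 164, 297 and 8304 in TS1 to TS4. CS3 and TS4 were high, 1 in each group, and the log2 fold change was 1.17 (SE 0.802, adjusted p = 0.570 by edgeR). Without TS4 it was -2.23. In TS4 miR-720 took 6.05% of all miRNA counts (95% Wilson interval 5.96 to 6.14), and the miR-1937a+miR-1937b probe was also highest there, at 745 normalized counts. The summed level of 4 erythrocyte miRNAs was 17081 to 44989 in CS and 7721 to 65025 in TS, and its part in these values was not tested.

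miR-2141 passed background only in CS4 (145 normalized counts) and TS4 (255), the 2 deepest plasma libraries. Its other values were 14.1 to 41.3, and its log2 fold change was 0.12 (SE 0.836, adjusted p = 0.934 by edgeR), or -2.13 without TS4. miR-2132 and miR-2134 were below background in all 7 plasma samples, so a difference was not detectable at this depth. Their log2 fold changes were -0.27 (SE 0.972) and 0.99 (SE 1.01), with adjusted p = 0.877 and 0.614 by edgeR. The exact permutation p of the 6 members ran from 0.171 to 0.914, where 35 splits allow no p under 0.0571.

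The mouse of FT2 gave plasma TS1. In TS1 the 5 numbered members had 8 to 19 deposited counts each, all under its background level of 37.0, although FT2 was the highest induced tube for each of them. The housekeeping mRNAs were at 3.87 to 91.9 counts (geometric mean per sample) in plasma, near background, so the ratio to them says little there. The log2 ratio in TS against CS was 2.52 for miR-2133, 1.81 for miR-2134, 1.10 for miR-720, 0.57 for miR-2141, 0.17 for miR-2132 and -0.52 for miR-2140 (exact permutation p from 0.229 to 0.914, adjusted from 0.857 to 0.914). The housekeeping mean itself differed by -1.05 on the log2 scale (exact permutation p = 0.114, adjusted 0.229).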

How the data were processed

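The deposited values were nCounter counts of 626 probes (566 mouse miRNAs, 60 other probes) in 22 samples. They were made by the authors from 100 ng (tissue) or 10 ng (plasma) of total RNA with the mouse miRNA v1.5 panel, with no replicates pooled. Whether the deposited counts had been corrected for positive controls is not given in the sources used here. All columns were matched to samples (0 left unmatched). A metastatic tumor and a control plasma sample that the study left out of its analysis were not analysed here. Alleles of the mice other than Brca1 and Brca2 are not reported here.

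Each sample was scaled to a geometric mean taken over the 100 (tissue) or 30 (plasma) miRNAs of highest mean count, with the average of these means as the common level, close to the scaling in the study's methods. Each comparison used its own groups in edgeR 4.0.16 (quasi-likelihood test, these scaling factors as library sizes, R 4.3.3), with Benjamini-Hochberg adjustment over the 566 miRNAs and a threshold of 0.05. The standard error is the size of the log2 fold change over the square root of F. Single values were compared by exact permutation tests in scipy 1.17.1. The edgeR fit was also run on counts simulated with the same fixed spread for all miRNAs. The spread of these data was not fixed in that way, so no result here rests on that run. Sample numbers do not mark shared mice between the groups compared with each other, so no pairing was used.

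The members and all lists were chosen with earlier results of these data known. Named were the 6 members, every probe of the lists of numbered neighbours, tRNA-fragment, rRNA-spacer and housekeeping probes (miR-712* is on the list and is not analysed here), and the 5 miRNAs most like the mean of the members. Alternatives were other scalings (TMM, DESeq2 1.42.0 size factors, miR-425, housekeeping mRNAs, ligation controls, the scaling set less the members), subtraction of negative controls, a minimum mean count of 20, DESeq2, limma 3.58.1, the methods' t-test after Benjamini-Hochberg, the sample number as a replicate block, a pseudocount of 10, each housekeeping probe alone, and leaving out each sample.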

Additional observations from a re-analysis of the deposited data

Results flagged for a closer look

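In 3 of 28 groups of 4 or 5 samples examined (6 members and the housekeeping mean) a value stood far from the rest, where chance alone sets about 1 in 20 apart. The groups share samples, the numbered members ran together, and TS4 gave more than 1 of the values. The count therefore cannot be read against that rate. miR-2140 was 1307.52 normalized counts in FT2 against 19.4 to 29.4 in the other FT samples. miR-2141 was 254.565 in TS4 against 14.1 to 19.3 in the other TS samples. miR-720 was 8303.73 in TS4 against 164 to 297 in the other TS samples.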

How the results depend on the processing

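The 5 numbered members had positive log2 fold changes in M against CT under every alternative run, from 1.40 (miR-2140, housekeeping scaling) to 11.91 (miR-2134, negative controls subtracted), and miR-720 turned from 0.36 to -1.82 with housekeeping scaling (-0.10 to 0.65 on leaving out each sample). Housekeeping scaling moved the median of all miRNAs in M against CT from 0.29 to -2.64 and the calls from 82 (58 higher, 24 lower) to 504 (6 higher, 498 lower). Other counts over all miRNAs in M against CT were 151 with TMM (83 higher, 68 lower), 163 with DESeq2 size factors (92, 71), 80 with miR-425 (70, 10), 48 with ligation-control scaling (39, 9), 85 with the scaling set less the members (71, 14), 133 with negative controls subtracted, 190 with DESeq2, 33 with the methods' t-test and 50 to 101 on leaving out each sample. In FT against CT the 1 call became 0 to 6 over the alternatives (6 with DESeq2) and 12 without FT3. In M against FT the 9 calls (5 higher, 4 lower) became 10 with TMM and with DESeq2 size factors (3, 7), 2 with miR-425 (0, 2), 13 with housekeeping scaling (0, 13), 6 with ligation-control scaling (2, 4), 39 with DESeq2, 5 with limma, 0 with the methods' t-test, 2 with the replicate block and 33 without FT2. In TS against CS the 0 calls became 13 with DESeq2 and 90 with the replicate block. Between the groups compared, sample numbers mark different mice, and deviations of same-numbered samples correlated from -0.41 to 0.32. The replicate block gave -0.16 for miR-2141 in TS against CS.

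In M against CT the numbered neighbours past the threshold went from 3 to 0 with housekeeping scaling and with the methods' t-test, and leaving out each sample gave 3 to 3. With housekeeping scaling miR-2135 was -0.70 and miR-714 was -0.90. The tRNA-fragment probes lower in M went from 2 to 1 with DESeq2 size factors and with the scaling set less the members, to 0 with miR-425, ligation-control scaling, negative controls subtracted and the methods' t-test, and to 0 to 2 on leaving out each sample. In M against FT the neighbours went from 1 to 0 with miR-425, housekeeping and ligation-control scaling, negative controls subtracted, a minimum mean count of 20, limma, the methods' t-test and the replicate block, to 3 with DESeq2, and to 0 to 3 on leaving out each sample.

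In TS against CS DESeq2 called 1 member (miR-2133) and 1 neighbour (miR-2137). The log2 fold change of miR-2132 (-0.27) was 0.041 with TMM, 0.12 with DESeq2 size factors, 0.55 with housekeeping scaling, 0.20 with ligation-control scaling, 1.74 with negative controls subtracted and -1.57 to 0.38 on leaving out each sample. That of miR-2140 (-1.03) was 0.26 with TMM, 0.36 with DESeq2 size factors and with DESeq2, and 0.90 with ligation-control scaling. That of miR-2141 (0.12) was -0.46 with limma and the methods' t-test and -2.13 to 1.38 on leaving out each sample, and that of miR-720 (1.17) was -2.23 to 3.24. The housekeeping difference (-1.05) was 0.46 with ligation-control scaling. Over Actb alone the ratio was -0.41 for miR-2132 and -0.0125 for miR-2141, and leaving out each sample gave -0.56 to 1.07 for miR-2132, -0.24 to 1.20 for miR-2141 and -0.042 to 2.26 for miR-720. The cause of these shifts was not tested. Members that the minimum mean count removed, and those for which DESeq2 gave no adjusted p, have no value there. Levels at background, as in most CT and plasma samples, limit every fold of the numbered members, and 5 samples a group limit the rest.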
